A study of Mus musculus with 10 samples.

Results

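The 47 genes described here act in the cell cycle and in proliferation, and were measured in mouse brain endothelial cells given a mucin-cutting protease. They were taken by name, as rows of the expression table whose gene name stood in a list. It held S-phase genes, G2/M genes, cyclins and inhibitors of cyclin-dependent kinases (CDKs). The rule uses no measured value, but the list was chosen with earlier results of these data known. All 47 names were found among the 27024 rows with a gene name, and all 47 were abundant enough to be tested. By role, 25 of them act in mitosis or its onset, 13 in DNA replication, 6 in the entry from G1 into S phase, and 3 are CDK inhibitors.

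bEnd.3, the line used, is a mouse brain endothelial line immortalised with the polyomavirus middle T antigen, so its division is not that of the mostly resting endothelium of the brain. Wild-type bEnd.3 cells in serum-containing growth medium received either saline (replicates 1, 2, 3, 4 and 5) or 5 nM StcE (replicates 1, 2, 3, 5 and 6), and both groups were collected at 16 h. StcE is a bacterial protease that cuts glycoproteins dense in mucin-type O-glycans, and none of the 10 samples received an inactive form of it. No source states that the samples came from separate cultures, so p-values measure the spread between these samples, which may be technical.

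Cyclins rise and fall through the cell cycle and switch on CDKs, which drive each transition. Mitogens raise D-type cyclins, whose kinases release E2F factors from the retinoblastoma protein and so turn on genes for DNA replication. Later, complexes with FOXM1 turn on genes for mitosis. CDK inhibitors hold these kinases back, and resting brain endothelium carries little of the mitotic programme, whereas a growing culture carries all of it.

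Poly-adenylated RNA had been made into strand-specific libraries, and expression was deposited as FPKM (fragments per kilobase of exon, already scaled for the depth of each sample). Multiplied by exon length, 96.6% of the values above 0 came out within 0.05 of a whole fragment, which gave 21864604 to 33147402 fragments per sample, with overlapping ranges in both groups. Of the 47 genes, 45 came out whole in every sample, and behind a single value of these lay 638 to 128624 fragments. Summed over 9 endothelial markers, expression ran from 1742 to 1880 FPKM in saline and from 1705 to 1775 FPKM in StcE samples. Of 16 markers of other cell types, 14 had a mean under 0.3 FPKM in each group, the exceptions being *Cd68* (20.1 FPKM over all samples) and *Acta2* (3.14 FPKM), and the endothelial label was borne out. By the test used below, 4 of the 9 endothelial markers were lower with StcE and 1 was higher (55.6% called, against 11.9% of all genes). Their part in the results was not tested.

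All 47 genes were expressed at a mean of over 5 FPKM. FPKM is scaled to exon length, so levels were set side by side. The lengths that gave whole fragments count all annotated exons of a gene, so levels of different genes compare only roughly. *Ccnd1*, which encodes cyclin D1, stood far above the rest at 731.8 FPKM (mean of 10 samples), followed by the CDK inhibitor *Cdkn1a* at 124 FPKM and *Cdc20*, an activator of the anaphase-promoting complex, at 104 FPKM. At the other end were *Cenpf*, a kinetochore gene, at 5.53 FPKM, and *Gins2*, part of the replicative helicase, at 8.13 FPKM. Genes used as readouts of cycling lay between, with *Top2a* at 54.8, *Mki67* at 40.8, *Cdk1* at 35.3 and *Ccnb1* at 28.6 FPKM. The median coefficient of variation over the 5 saline samples was 3.48% for the 47 genes and 4.93% for all genes tested.

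**Figure D1:**
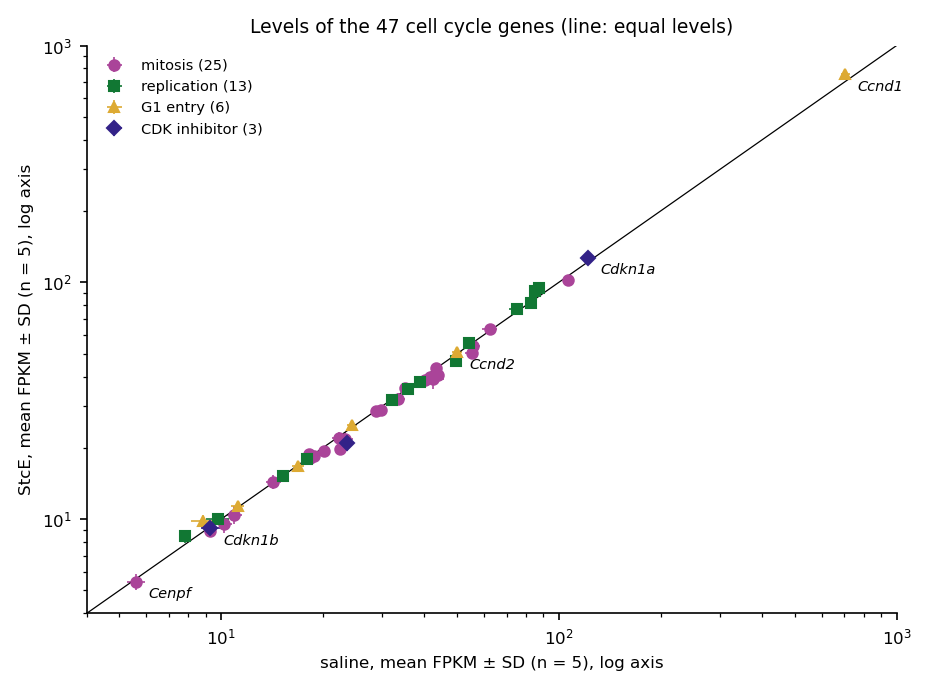
Mean FPKM of the 47 cell cycle genes in saline (x axis) and StcE samples (y axis), both axes logarithmic, with bars for the SD of 5 samples and the line marking equal levels. The genes lie close to the line, from *Cenpf* at 5.53 FPKM to *Ccnd1* at 731.8 FPKM.

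Most of the 47 genes did not pass the test between StcE and saline. Every gene with a mean of at least 1 FPKM (11062 genes) was fitted with limma on log2(FPKM + 1). Genes were called at a Benjamini-Hochberg adjusted p under 0.05. A difference on this scale understates the change of weakly expressed genes, the more so the lower their level. The lowest of the 47 genes had a mean of 5.53 FPKM, whereas the figures for all genes include genes down to 1 FPKM. At that threshold 7 of the 47 genes were called (14.9%), against 1320 of all 11062 genes (11.9%). *Ccnb2*, *Bub1b*, *Plk1* and *Cdkn2c* were lower with StcE (4 of 47, 8.51%, against 6.41% of all genes), and *Pcna*, *Ccnd1* and *Rrm2* were higher (3 of 47, 6.38%, against 5.52%). The share of cell cycle genes called was thus near that of the whole table. Scaled to the total FPKM of each sample, *Bub1b* and *Cdkn2c* kept their call and the other 5 lost it (limma adjusted p 0.0711 to 0.176). A block on the replicate number was also fitted, over the 8 samples with a number found in both groups. It called 0 of the 7 genes (limma adjusted p 0.0741 to 0.182). In all it called 349 genes, beside 885 in the same 8 samples without the block.

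The changes were small. Among the 47 genes the largest difference between group means was the 11.9% of *Bub1b*, and the fitted log2 fold changes ran from -0.18 to 0.14 with a median of -0.02, where the median of all genes tested was -0.00066. The 95% confidence interval of the log2 fold change lay within a 1.2-fold change (0.263 on the log2 scale) in either direction for 45 of the 47 genes, against 83.4% of all genes. The 2 exceptions, *Mki67* and *Cdkn2c*, reached past that limit by under 0.01 on the lower side. There was no overlap between StcE and saline values in 5 of the 47 genes (10.6%), against 10.7% of all genes. At an unadjusted limma p under 0.05 stood 12 of the 47 (25.5%) and 3071 of all genes (27.8%).

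**Figure D2:**
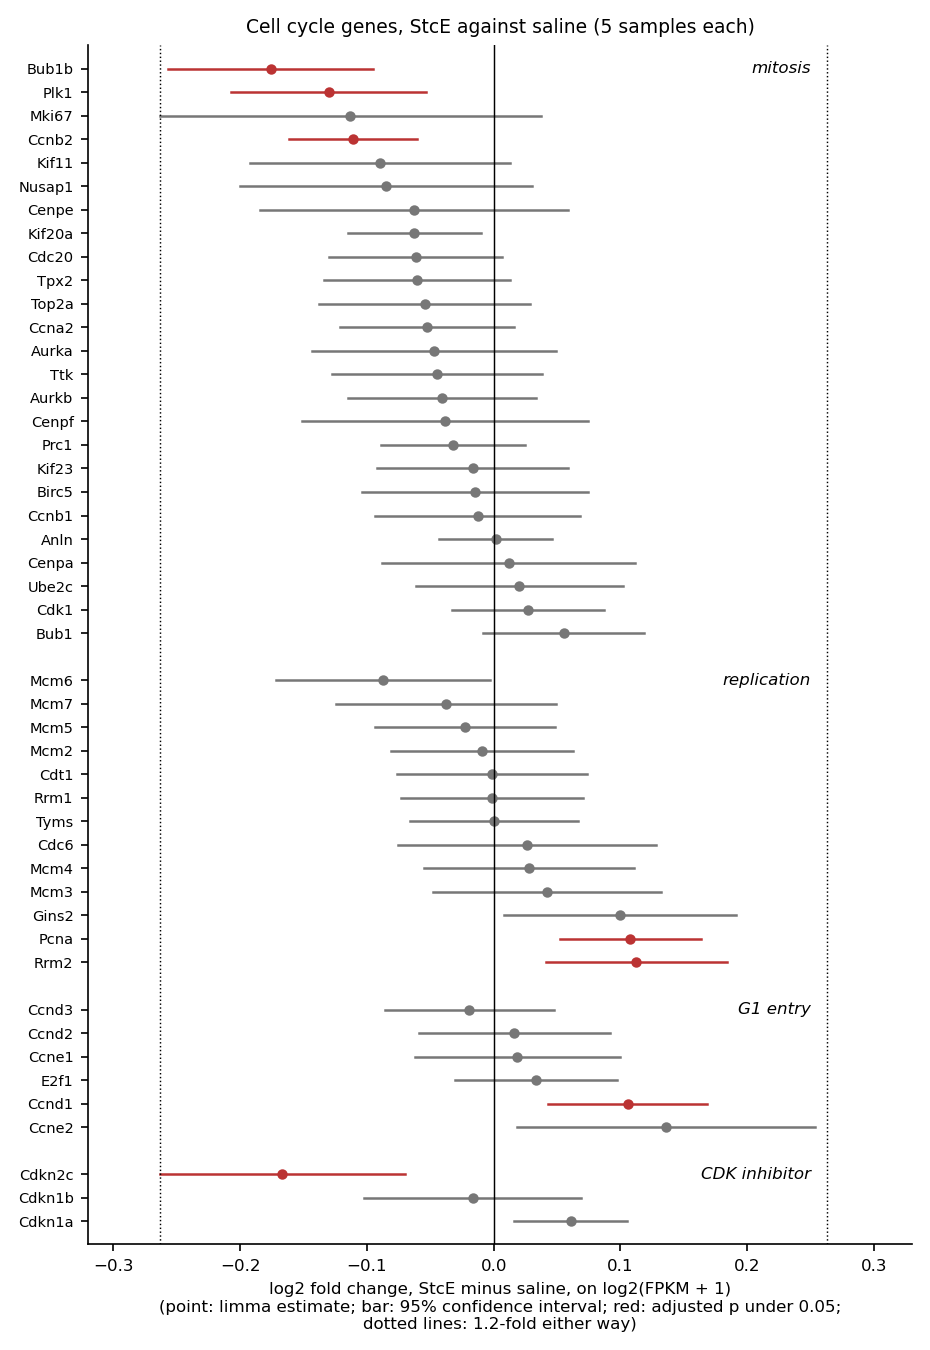
Log2 fold change of each of the 47 genes (x axis, StcE minus saline on log2(FPKM + 1)), grouped by role, with points for limma estimates, bars for 95% confidence intervals and red for an adjusted p under 0.05. Estimates run from -0.18 (*Bub1b*) to 0.14 (*Ccne2*), and the intervals of 45 genes stay inside the dotted lines at a 1.2-fold change.

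Among the 25 genes of mitosis, 3 fell and 0 rose by limma (12% called, against 11.9% of all genes). At an unadjusted limma p under 0.05 stood 4 lower and 0 higher (4 of 25, against 27.8% of all genes). The median log2 fold change was -0.05 and 20 of the 25 estimates (80%) lay below 0, beside 50.4% of all genes tested. As mitotic RNA is found mainly in cells in G2 and mitosis, fewer such cells and less RNA per cell cannot be told apart in these bulk samples.

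*Ccnb2* encodes cyclin B2, a partner of CDK1 at the entry into mitosis (chr9:70407692-70421547, minus strand of GRCm38). It stood at 42.95, 44.2, 43.2, 44.9 and 43.9 FPKM in saline replicates 1 to 5 and at 41.7, 40.4, 40.8, 40.8 and 38.96 FPKM in StcE replicates 1, 2, 3, 5 and 6, an order kept for the other genes. The highest StcE sample was below the lowest saline sample. The mean fell by 7.56%, from 43.8 ± 0.789 to 40.5 ± 0.988 FPKM (SD, n = 5 each), and the log2 fold change was -0.11 with a standard error of 0.02305 (limma adjusted p = 0.0104). The exact two-sided permutation p was 0.00794, the smallest that arrangements of 5 and 5 samples can give. Any gene whose groups do not overlap gives this value, so it adds nothing to the lack of overlap. The call was kept in each of the 10 refits that left out 1 sample (limma adjusted p 0.0108 to 0.0265). Of the 11 other settings 9 kept it, and scaling to the FPKM total did not (limma adjusted p = 0.0793).

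*Bub1b* encodes BUBR1, a kinetochore protein of the spindle assembly checkpoint (chr2:118598211-118641591, plus strand). Its values were 22.9, 22.8, 21.4, 22.8 and 22.2 FPKM with saline and 19.4, 20.9, 18.3, 20.8 and 19.3 FPKM with StcE. The groups did not overlap, and StcE replicate 3 was the lowest of all. The mean fell by 11.9%, from 22.4 ± 0.612 to 19.8 ± 1.12 FPKM (log2 fold change -0.18, standard error 0.03697, limma adjusted p = 0.0111). This call too was kept in all 10 refits without 1 sample (adjusted p 0.00745 to 0.0313) and in 9 of the 11 other settings, but not over replicates 1, 2, 3 and 5 of both groups alone (limma adjusted p = 0.0545). Its checkpoint partner *Bub1* had a log2 fold change of 0.06 in the other direction (limma adjusted p = 0.246).

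*Plk1* encodes polo-like kinase 1, which promotes entry into mitosis and spindle formation (chr7:122159439-122169873, plus strand). It measured 55.8, 56.02, 51.04, 58.02 and 55.2 FPKM in saline and 52.8, 51.5, 49.7, 49.2 and 48.4 FPKM in StcE samples. The lowest saline sample, replicate 3, lay below the upper StcE values, so the groups overlapped. The mean fell by 8.82%, from 55.2 ± 2.56 to 50.3 ± 1.78 FPKM. The log2 fold change was -0.13 with a standard error of 0.0351 (limma adjusted p = 0.0348, exact permutation p = 0.0238). The call was lost in 7 of the 10 refits without 1 sample (saline 1, 2, 4 or 5, or StcE 3, 5 or 6), with adjusted p-values of 0.00979 to 0.0807 over the 10 refits.

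*Mki67*, *Top2a*, *Ccnb1*, *Cdk1* and *Aurkb*, which also serve as markers of cycling cells, did not pass. *Mki67*, which encodes the proliferation antigen Ki-67, stood at 43.2, 41.6, 39.9, 47.6 and 39.4 FPKM in saline and 33.2, 42.2, 38.1, 39.2 and 42.98 FPKM in StcE samples. These ranges overlapped widely, since StcE replicates 2 and 6 lay among the saline values and StcE replicate 1 was the lowest of all. Its log2 fold change was -0.11 with a 95% interval of -0.26 to 0.04 (limma adjusted p = 0.315), the widest interval among the 47 genes.

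*Top2a*, the topoisomerase that untangles replicated chromosomes, measured 53.2, 56.9, 53.4, 56.7 and 59.05 FPKM in saline and 52.9, 56.4, 51.2, 56.5 and 51.8 FPKM in StcE samples, with a log2 fold change of -0.05 (interval -0.14 to 0.03, limma adjusted p = 0.385). *Ccnb1*, the cyclin B1 gene, measured 28.6, 28.3, 27.8, 29.0 and 30.02 FPKM and 28.2, 29.8, 28.2, 30.1 and 26.2 FPKM, a log2 fold change of -0.01 (interval -0.09 to 0.07, limma adjusted p = 0.862). Both genes overlapped between the groups, and the StcE mean of *Ccnb1* lay within 1 SD of its saline mean. A test of *Ccnb2* against *Ccnb1* was not made.

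*Cdk1*, the kinase that B-type cyclins activate, stood at 34.5, 35.4, 34.1, 34.6 and 36.5 FPKM in saline and 36.8, 35.9, 35.5, 36.3 and 33.9 FPKM in StcE samples (log2 fold change 0.03, interval -0.03 to 0.09, limma adjusted p = 0.564). *Aurkb*, a kinase that corrects the attachment of chromosomes to the spindle, stood at 29.6, 29.6, 28.99, 29.4 and 31.1 FPKM and 30.2, 29.7, 27.6, 29.8 and 27.1 FPKM (log2 fold change -0.04, interval -0.12 to 0.03, limma adjusted p = 0.475). In both, StcE replicate 6 was the lowest of the 10 samples.

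The remaining mitosis genes that did not pass had log2 fold changes from -0.09 (*Kif11*, the motor that separates the spindle poles) to 0.06 (*Bub1*). The kinesin gene *Kif20a* came nearest to the threshold, at -0.06 (limma adjusted p = 0.115). *Cdc20* had -0.06, *Tpx2*, which nucleates spindle microtubules, -0.06, *Ccna2*, the cyclin A2 gene, -0.05, and *Aurka*, a centrosome kinase, -0.05, all with limma adjusted p-values above the threshold. *Anln*, needed for cytokinesis, had the narrowest interval of these genes, -0.04 to 0.05. *Birc5*, *Cenpa*, *Cenpe*, *Cenpf*, *Kif23*, *Nusap1*, *Prc1*, *Ttk* and *Ube2c* had estimates from -0.08 to 0.02.

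**Figure D3:**
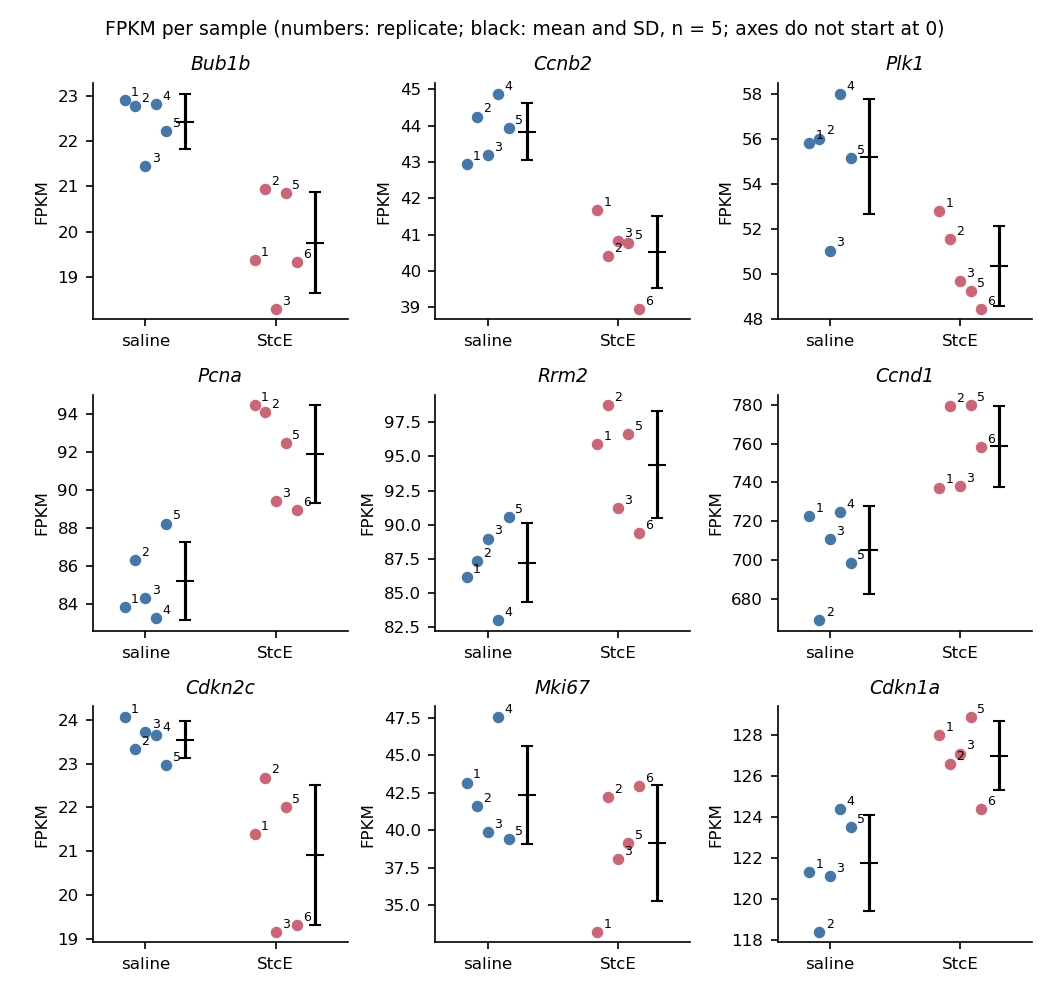
FPKM (y axis, not starting at 0) in each saline and StcE sample for the 7 genes that passed the test and for *Mki67* and *Cdkn1a*, with replicate numbers beside the points and black bars for the mean and SD of 5 samples. The groups do not overlap for *Bub1b*, *Ccnb2*, *Pcna*, *Ccnd1* and *Cdkn2c*, and they overlap or meet for the other 4 genes.

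Of the 13 genes of DNA replication, 2 rose and 0 fell by limma (15.4% called, against 11.9% of all genes), and at an unadjusted p under 0.05 stood 3 higher and 1 lower (4 of 13, against 27.8% of all genes). Their median log2 fold change was -4.5e-05, with 7 estimates below 0 and 6 above. The genes of the 6 MCM subunits, which form the helicase that opens DNA, lay on both sides of 0: *Mcm3* had a log2 fold change of 0.04, *Mcm4* 0.03, *Mcm2* -0.01, *Mcm5* -0.02, *Mcm7* -0.04 and *Mcm6* -0.09, none of which passed.

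*Pcna* encodes the sliding clamp that holds DNA polymerase on its template (chr2:132249162-132253314, minus strand). It stood at 83.8, 86.3, 84.3, 83.3 and 88.2 FPKM in saline and at 94.5, 94.1, 89.4, 92.5 and 88.95 FPKM in StcE samples. No saline sample reached a StcE sample, although StcE replicate 6 exceeded saline replicate 5 by less than 1 FPKM. The mean rose by 7.87%, from 85.2 ± 2.05 to 91.9 ± 2.58 FPKM, with a log2 fold change of 0.11, a standard error of 0.0254 and a limma adjusted p of 0.0194 (0.0513 without saline replicate 1). The exact permutation p was 0.00794. The call was kept in 9 of the 10 refits without 1 sample and in 9 of the 11 other settings, not with scaling to the FPKM total (limma adjusted p = 0.176). Of the *Pcna* transcript, 51.4% had a copy of at least 95% identity in the processed pseudogene *Pcna-ps2*, so its reads could be split between both. *Pcna-ps2* was listed at 48.3 ± 1.92 FPKM in saline and 52.4 ± 2.50 FPKM in StcE samples (log2 fold change 0.12, standard error 0.0369, limma adjusted p = 0.0645).

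*Rrm2* encodes the small subunit of ribonucleotide reductase, which makes deoxynucleotides and is limiting in S phase (chr12:24708241-24714146, plus strand). It measured 86.2, 87.3, 88.97, 82.98 and 90.6 FPKM in saline and 95.9, 98.8, 91.2, 96.6 and 89.4 FPKM in StcE samples. StcE replicate 6 lay below saline replicate 5, and the other 4 StcE samples exceeded the saline range. The mean rose by 8.24%, from 87.2 ± 2.89 to 94.4 ± 3.92 FPKM (log2 fold change 0.11, standard error 0.0326, limma adjusted p = 0.0451, exact permutation p = 0.0159). Only 2 of the 10 refits without 1 sample kept the call, those without saline 5 or StcE 6, and over the 10 refits the adjusted p ran from 0.0255 to 0.0978. The gene of the large subunit, *Rrm1*, had a log2 fold change of -0.0016 (95% interval -0.07 to 0.07). For *Rrm2*, 27.9% of the transcript had a copy of at least 95% identity in 2 other genes.

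*Mcm2* stood at 35.2, 33.6, 35.2, 36.8 and 37.5 FPKM in saline and 34.7, 37.2, 34.1, 35.7 and 35.5 FPKM in StcE samples, and its groups overlapped throughout (95% interval of the log2 fold change -0.08 to 0.06, limma adjusted p = 0.887). *Mcm6* stood at 48.96, 50.9, 47.9, 49.03 and 51.4 FPKM and 45.1, 49.99, 44.1, 49.5 and 44.9 FPKM. StcE replicates 2 and 5 lay within the saline range of *Mcm6* and the other StcE samples below it, and the interval ran from -0.17 to -0.0028 (limma adjusted p = 0.168). *Gins2* had a log2 fold change of 0.10 (limma adjusted p = 0.147), and exons of *Gse1* on the opposite strand cover 67.3% of its exon length. *Cdc6* and *Cdt1*, which load the helicase, and *Tyms*, which makes thymidylate, had intervals of -0.08 to 0.13, -0.08 to 0.07 and -0.07 to 0.07.

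In the group of G1 entry, *Ccnd1* rose and the other 5 genes did not pass (1 of 6, 16.7% called, against 11.9% of all genes). The median log2 fold change of the 6 genes was 0.03, with 5 of 6 estimates above 0 (16.7% below 0, beside 50.4% of all genes). *Ccnd1* (chr7:144929931-144939925, minus strand) measured 723, 669, 711, 725 and 698 FPKM in saline and 737, 779, 738, 779.8 and 758 FPKM in StcE samples. The lowest StcE sample was above the highest saline sample. The mean rose by 7.601%, from 705 ± 22.8 to 759 ± 20.9 FPKM (log2 fold change 0.11, standard error 0.0287, limma adjusted p = 0.0355, exact permutation p = 0.00794). Its call was kept in 3 of the 10 refits without 1 sample and lost without saline 2, 3 or 5 or StcE 2, 3, 5 or 6 (adjusted p 0.0406 to 0.0817 over the 10 refits). Exons of a gene on the opposite strand cover 23.4% of its exon length.

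*Ccnd2*, the cyclin D2 gene, measured 49.7, 48.03, 52.6, 50.7 and 49.1 FPKM in saline and 47.5, 49.01, 51.1, 52.3 and 53.1 FPKM in StcE samples, with largely overlapping ranges (log2 fold change 0.02, interval -0.06 to 0.09, limma adjusted p = 0.800). *Ccne2*, one of the E-type cyclins that activate CDK2 at the start of S phase, stood at 8.37, 9.895, 8.56, 8.15 and 9.28 FPKM in saline and 9.85, 10.02, 10.4, 9.999 and 8.79 FPKM in StcE samples. Its estimate of 0.14 was the highest of the 47, but saline replicate 2 lay among the StcE values and the gene did not pass (limma adjusted p = 0.126, and 0.0494 without that sample). *E2f1*, a transcription factor of S-phase genes, stood at 24.9, 23.02, 24.9, 25.3 and 24.04 FPKM and 25.8, 25.6, 24.97, 24.5 and 24.3 FPKM (log2 fold change 0.03, interval -0.03 to 0.10), with the 2 ranges overlapping. For *Ccnd3* and *Ccne1* the intervals were -0.09 to 0.05 and -0.06 to 0.10.

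Of the 3 CDK inhibitors 1 fell (33.3% called, against 11.9% of all genes) and the other 2 did not pass. *Cdkn2c*, which encodes an INK4 inhibitor of CDK4 and CDK6 (chr4:109660876-109667189, minus strand), stood at 24.1, 23.3, 23.7, 23.6 and 22.96 FPKM in saline and 21.4, 22.7, 19.2, 22.01 and 19.3 FPKM in StcE samples. The groups did not overlap, and StcE replicates 3 and 6 were set apart at the low end. The mean fell by 11.2%, from 23.6 ± 0.418 to 20.9 ± 1.595 FPKM (log2 fold change -0.17, standard error 0.0442, limma adjusted p = 0.0320, exact permutation p = 0.00794). It was called in 3 of the 10 refits without 1 sample and not without saline 1, 2, 3 or 4 or StcE 1, 3 or 6, with adjusted p-values of 0.0139 to 0.0744 over the 10 refits.

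*Cdkn1a*, which encodes p21 and is raised by p53 among other signals, stood at 121, 118, 121, 124 and 124 FPKM in saline and 128, 127, 127, 129 and 124 FPKM in StcE samples. StcE replicate 6 met saline replicate 4, and the other 4 StcE samples exceeded the saline range. With a log2 fold change of 0.06 and an interval of 0.02 to 0.11 it did not pass (limma adjusted p = 0.0774). *Cdkn1b*, which encodes p27, an inhibitor linked to quiescence, stood at 9.296, 9.20, 9.08, 8.64 and 10.3 FPKM and 9.30, 8.81, 9.46, 9.24 and 9.04 FPKM, with the StcE values inside the saline range (log2 fold change -0.02, interval -0.10 to 0.07, limma adjusted p = 0.824).

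Within each of the mitosis and replication groups, most genes stood high in some samples and low in others, also among samples of the same treatment. No test of this was made. Each gene was centred on its mean over the 10 samples, and the median over the genes was taken in each sample. In saline replicate 5, 23 of the 25 mitosis genes stood above their own mean, against 5 of 25 in StcE replicate 3 and 2 of 25 in StcE replicate 6. The mean of these medians was 0.0227 ± 0.0342 in saline and -0.0209 ± 0.0471 in StcE samples (SD, n = 5), on the log2 scale. The groups overlapped, since saline replicate 3 stood at -0.019 and StcE replicates 2 and 5 at 0.0271 and 0.0225.

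Replication genes were also split inside the StcE group. All 13 stood above their mean in StcE replicates 2 and 5, but 3 of 13 in StcE replicate 3 and 2 of 13 in StcE replicate 6. In saline replicate 3, 0 of the 13 stood above their mean, and in saline replicate 5, 8 did. Of the 6 G1 entry genes 2 to 5, and of the 3 CDK inhibitors 1 or 2, stood above their mean in every sample. Counted over the 47 genes, 16 had their highest value in saline replicate 5, 16 their lowest in StcE replicate 6 and 11 their lowest in StcE replicate 3. By comparison, the median over all genes tested stayed between -0.0059 and 0.0038 in every sample. Depth was 22929921 fragments in saline replicate 5, 32520729 in StcE replicate 3 and 23751621 in StcE replicate 6, and its part in this pattern was not tested.

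**Figure D4:**
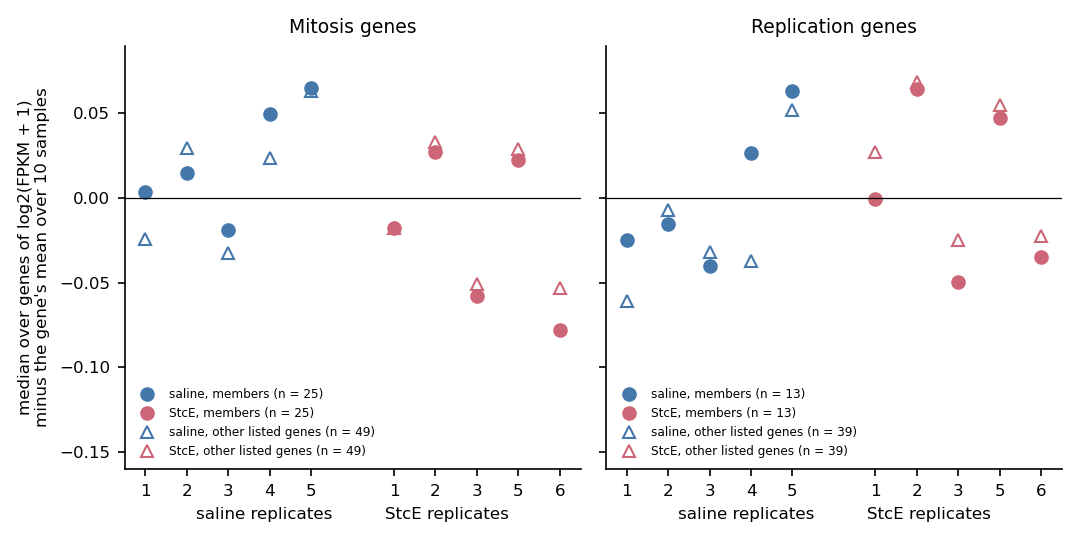
Median over genes of log2(FPKM + 1) minus each gene's mean over 10 samples (y axis), per sample (x axis, replicate number), for the 25 mitosis and 13 replication genes (filled circles) and for 49 other mitosis and 39 other replication genes (open triangles). For mitosis genes StcE replicates 3 and 6 lie lowest, at -0.058 and -0.0782, and saline replicate 5 highest, at 0.065.

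Promoters of these genes carry short motifs that the choice by name did not use. RefSeq promoters on GRCm38.p6, from 250 bases before to 50 bases after the start, were on hand for 38 of the 47 genes and were searched on both strands, matches being allowed to overlap. The cell cycle homology region (CHR, TTTGAA) lay in 16 of 21 mitosis promoters (76.2%) and 1 of 11 replication promoters (9.09%), beside 20.2% of all 27025 genes with a promoter. An E2F motif (TTTNNCGC, with each N a C or a G) lay in 6 of 11 replication promoters (54.5%), 1 of 21 mitosis promoters (4.76%) and 2.60% of all. The CCAAT box (CCAAT) lay in 85.7% of mitosis, 72.7% of replication and 41.1% of all promoters. These matches describe letters in the window and no binding was measured.

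Of the 7 genes that passed, 6 had a promoter, and CHR lay in 3 of the 4 that fell (*Ccnb2*, *Bub1b* and *Plk1*, not *Cdkn2c*) and in 0 of the 2 that rose (*Pcna* and *Rrm2*). The 3 with CHR are mitosis genes, of whose promoters 76.2% held it, and a link of CHR to the change was not tested. CHR was also present in *Mki67*, *Top2a* and *Cdk1*, which did not pass (log2 fold changes -0.11, -0.05 and 0.03). The 150 bases upstream of the RefSeq start follow for the 3 mitosis genes that fell, for *Mki67* and *Top2a*, and for *Mcm6* of the replication group, as examples of both layouts. They are written 5′ to 3′ on the strand of the gene, with CHR, CCAAT and E2F matches on either strand in capitals.
*Ccnb2* promoter, chr9:70421555-70421704, minus strand: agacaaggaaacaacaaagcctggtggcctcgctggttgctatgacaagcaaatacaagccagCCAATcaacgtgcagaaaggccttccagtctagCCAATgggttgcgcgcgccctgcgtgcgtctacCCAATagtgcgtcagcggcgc
*Bub1b* promoter, chr2:118598061-118598210, plus strand: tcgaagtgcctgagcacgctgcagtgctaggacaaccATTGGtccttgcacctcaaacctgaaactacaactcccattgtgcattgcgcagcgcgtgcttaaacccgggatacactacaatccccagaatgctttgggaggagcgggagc
*Plk1* promoter, chr7:122159285-122159434, plus strand: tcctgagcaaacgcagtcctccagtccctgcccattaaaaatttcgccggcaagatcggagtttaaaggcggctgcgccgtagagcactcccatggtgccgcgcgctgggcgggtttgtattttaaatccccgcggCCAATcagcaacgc
*Mki67* promoter, chr7:135716380-135716529, minus strand: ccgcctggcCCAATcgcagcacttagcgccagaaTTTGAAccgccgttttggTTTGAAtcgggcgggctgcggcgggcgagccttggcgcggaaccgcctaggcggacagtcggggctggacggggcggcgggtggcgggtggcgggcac
*Top2a* promoter, chr11:99024190-99024339, minus strand: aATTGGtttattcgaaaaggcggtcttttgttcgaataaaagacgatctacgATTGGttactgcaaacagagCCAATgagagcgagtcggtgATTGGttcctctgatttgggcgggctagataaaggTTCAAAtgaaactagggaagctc
*Mcm6* promoter, chr1:128359706-128359855, minus strand: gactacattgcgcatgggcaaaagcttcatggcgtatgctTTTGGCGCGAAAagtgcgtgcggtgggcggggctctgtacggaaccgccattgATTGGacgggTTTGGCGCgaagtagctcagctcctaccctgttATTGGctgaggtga
In *Ccnb2*, 3 CCAAT boxes began 87, 54 and 21 bases before the start, and the CHR matches lay outside the printed stretch, 167 bases before and 4 bases after the start. *Bub1b* and *Plk1* had their CHR 40 and 30 bases after the start, and 1 CCAAT box each, 113 and 14 bases before it. *Mki67* carried CHR at 116 and 98 bases before the start, and *Top2a* at 179 and 23 bases before it. *Mcm6* held no CHR but 3 E2F matches, at 110, 106 and 47 bases before the start, of which the first 2 overlap.

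Other genes of the same pathways, from lists written for this comparison, were tested in the same fit. Of 49 other mitosis genes 2 fell and 1 rose (6.12% called, against 11.9% of all genes), and 29 of the 49 estimates lay below 0 (59.2%, beside 50.4% of all genes), with a median log2 fold change of -0.02. *Ncaph*, a condensin subunit, fell from 20.03 ± 0.984 to 17.8 ± 1.19 FPKM (log2 fold change -0.16, limma adjusted p = 0.0435), and *Spc24*, a kinetochore subunit, fell from 12.4 ± 0.364 to 11.1 ± 0.738 FPKM (-0.15, limma adjusted p = 0.0334). *Pimreg*, a mitotic gene, rose from 26.9 ± 1.197 to 30.4 ± 1.71 FPKM (0.17, limma adjusted p = 0.0246). Of the 21 alternative settings, *Ncaph* was called in 7, *Spc24* in 10 and *Pimreg* in 13.

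Of 39 other replication genes 3 rose (7.69% called, against 11.9% of all genes). Of their estimates 30 lay above 0 and 9 below (23.1% below, beside 50.4% of all genes), with a median of 0.03. The median deviation of these genes per sample overlapped between the groups, at -0.017 ± 0.043 in saline and 0.0206 ± 0.0431 in StcE samples (SD, n = 5, log2 scale), with saline replicate 5 at 0.052 and StcE replicates 3 and 6 at -0.025 and -0.0223. *Cdc7*, the kinase that fires replication origins, rose from 5.26 ± 0.402 to 6.54 ± 0.594 FPKM with no overlap between the groups (log2 fold change 0.27, limma adjusted p = 0.0164). *Prim1*, a primase subunit, rose from 13.5 ± 0.719 to 15.02 ± 0.467 FPKM, also without overlap (0.15, limma adjusted p = 0.0234), and *Orc6*, part of the origin recognition complex, from 19.5 ± 0.959 to 21.4 ± 0.686 FPKM (0.12, limma adjusted p = 0.0409). *Cdc7* was called in 17, *Prim1* in 13 and *Orc6* in 9 of the 21 alternatives.

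Among 28 other regulators of the cycle, 26 were tested, *E2f2* and *Cdkn1c* being under 1 FPKM. In this list 3 genes rose and 1 fell (15.4% called, against 11.9% of all genes). *Cdkn2b*, an INK4 inhibitor of CDK4 and CDK6 like *Cdkn2c*, rose from 31.2 ± 0.986 to 38.7 ± 1.82 FPKM, or 0.30 as a log2 fold change (limma adjusted p = 0.000257), and it was called under all 21 alternative settings. *Cdk2*, the kinase of E-type and A-type cyclins, rose from 11.1 ± 0.368 to 12.7 ± 0.376 FPKM (0.18, limma adjusted p = 0.00304). *Myc*, a transcription factor of growth genes, rose from 43.95 ± 0.959 to 46.8 ± 1.08 FPKM (0.09, limma adjusted p = 0.0319). *Wee1*, the kinase that restrains CDK1, fell from 21.2 ± 0.832 to 19.03 ± 0.943 FPKM (-0.15, limma adjusted p = 0.0236). Under the 21 alternatives *Cdk2* was called in 20, *Wee1* in 14 and *Myc* in 9. The changes of *Cdkn2b* and *Cdkn2c* were in opposite directions, and the values of *Cdkn2b* did not overlap between the groups.

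Of 21 targets of p53, the transcription factor that halts division on damage, 19 were tested, and *Pmaip1* and *Perp* were under 1 FPKM. Of these genes 2 rose and 2 fell (21.1% called, against 11.9% of all genes). *Mdm2*, the ligase that degrades p53, rose from 86.6 ± 1.905 to 98.1 ± 2.01 FPKM without overlap (log2 fold change 0.18, limma adjusted p = 0.000551), and *Ccng1*, the cyclin G1 gene, from 105 ± 2.64 to 111 ± 1.84 FPKM (0.09, limma adjusted p = 0.0253). *Bbc3*, which encodes the apoptosis inducer PUMA, fell from 14.4 ± 0.617 to 12.3 ± 0.518 FPKM (-0.22, limma adjusted p = 0.00248), and *Gadd45a*, a damage-response gene, from 2.81 ± 0.3495 to 2.25 ± 0.172 FPKM (-0.23, limma adjusted p = 0.0399). The median of the list was -0.02, and *Mdm2* and *Bbc3* were called under all 21 alternatives, *Ccng1* under 15 and *Gadd45a* under 8.

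**Figure D5:**
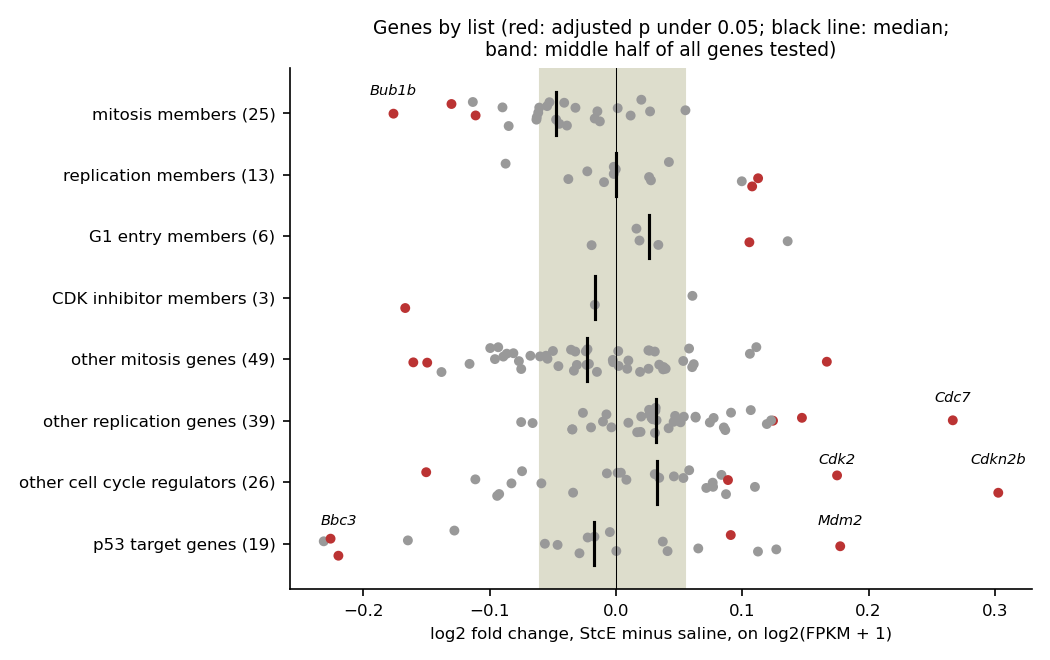
Log2 fold change of single genes (x axis, StcE minus saline on log2(FPKM + 1)) in the 4 groups of cell cycle genes and in 4 lists of other genes (y axis, number tested in brackets), red for an adjusted p under 0.05, black lines for medians and the band for the interquartile range of all genes tested. Group medians run from -0.05 for the mitosis genes to 0.03, inside the band, and *Cdkn2b* lies farthest out at 0.30.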

How the data were processed

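Bulk RNA-seq of 10 bEnd.3 samples was used (5 saline, 5 StcE). The authors aligned trimmed read pairs to the mouse genome and deposited FPKM per gene and sample, and the submitters' processing notes name HISAT2 2.0.5, featureCounts 1.5.0-p3, DESeq2 1.32.0 and the build mm10. The annotation release is not given in the sources used here. Empty rows (22874) were dropped, and 12 repeated names were kept as separate rows.

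Genes with a mean of at least 1 FPKM (11062) were fitted on log2(FPKM + 1), a pseudocount of 1, with limma 3.58.1 in R 4.3.3 (lmFit, eBayes with trend), with treatment as the sole term, in place of a count model because the deposited values are not counts. Single genes were also tested by exact permutation over the 252 arrangements of 5 and 5 samples (Python 3.11.15). Fragments were recovered with exon lengths of GENCODE mouse release 21, and 45 of the 47 genes came out whole in every sample. Recovered fragments speak of counting error only. Copies in other genes were sought with BLAST 2.17.0 (at least 95% identity over 150 bases).

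The members and the lists were chosen with earlier results of these data known. Values in every sample are given for each member past the threshold and for 16 usual readouts of proliferation, and other members by range. From each list of other genes, up to 5 genes per direction with the smallest adjusted p are named. Alternatives were another pseudocount, filter, scaling, variance model, a block on the replicate number, refits without 1 sample, and limma voom on recovered fragments. *Rgs5*, 1 of the listed markers, was not found among the rows.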

Additional observations from a re-analysis of the deposited data

Results flagged for a closer look

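In 7 of the 94 groups of 5 samples examined (47 genes in 2 groups), 1 sample stood far from the other 4, where chance alone is expected to give 4.7. Saline replicate 5 was highest for *Cdc20* at 112.8 FPKM, the other saline samples being at 104.3 to 105.4, and for *Rrm1* at 33.64 FPKM, the others at 31.4 to 31.84. Saline replicate 4 was highest for *Cenpe* at 11.92 FPKM, the others at 10.53 to 10.79, and for *Ttk* at 9.777 FPKM, the others at 8.984 to 9.187. Saline replicate 1 was lowest for *Nusap1* at 9.17 FPKM, the others at 10.21 to 10.63. Among StcE samples, replicate 1 was highest for *Cenpa* at 16.09 FPKM, the others at 13.78 to 14.36, and replicate 5 for *Kif20a* at 19.92 FPKM, the others at 19.04 to 19.26. None of these 6 mitosis genes and the replication gene *Rrm1* passed the test between the groups.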

How the results depend on the processing

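Over 1384 recomputed values of single genes, 0 reversed a call, 197 lost and 2 gained one. Only genes called in the main fit could lose a call. The 1384 values include those of the 40 cell cycle genes not called, so 197 is not to be read as a share of 1384. The called genes kept their sign in all 21 alternatives, as did the medians of the mitosis genes (-0.0699 to -0.0331) and the G1 entry genes (0.0149 to 0.0377), whereas the median of the replication genes lay below 0 in 12 and above 0 in 9 (-0.0113 to 0.0225). With no filter 801 genes were called (409 lower, 392 higher), 2 cell cycle genes lower and 1 higher, and with a minimum of 0.1 FPKM 1 was higher. Scaling to the FPKM total called 790 genes, of which 518 were lower and 272 higher (65.6% lower, against 53.7%), with 2 cell cycle genes lower (*Bub1b* and *Cdkn2c*) and 0 higher by limma (3 higher at an unadjusted p under 0.05). *Gm23935* alone held 9.45% to 17.7% of that total, and without it, a setting chosen after seeing the data, 709 genes were lower and 575 higher (55.2% lower). Leaving out 1 sample gave 793 to 1255 calls in all, 409 to 667 lower and 384 to 588 higher, with 2 to 4 cell cycle genes lower and 1 to 2 higher. The lowest counts came without StcE replicate 3 (793) and without saline replicate 1 (838). With the replicate block, over 8 samples, 349 genes were called (162 lower, 187 higher), with 0 cell cycle genes lower and 0 higher by limma (5 and 6 at an unadjusted p under 0.05, and adjusted p 0.0741 to 0.182 for the 7 called genes), and the same 8 samples without it gave 452 lower and 433 higher, with 1 cell cycle gene lower (*Ccnb2*) and 2 higher (*Pcna* and *Rrm2*). Across all genes tested, same-numbered samples did not deviate together (correlations of -0.0966 to 0.0539 for 4 shared numbers, none of them the best match), so the numbers were not taken as pairs. Per-sample medians of the centred mitosis genes at numbers 1, 2, 3 and 5 were 0.0034, 0.0146, -0.019 and 0.065 with saline. With StcE they were -0.0177, 0.0271, -0.058 and 0.0225. In both groups numbers 2 and 5 stood above numbers 1 and 3, and whether these medians follow the number was not tested. *Cdkn1a* was called under upper-quartile scaling alone. Limma voom on the recovered fragments called 816 lower and 694 higher. The planned count model was not run, since the deposited values are FPKM. With 5 samples a group, the median half-width of the 95% interval was 0.0769 on the log2 scale for the 47 genes, which limits what changes could be seen.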
